A study of Mus musculus with 2 samples.

Results

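The syndecans and glypicans, the main families of cell-surface heparan sulfate proteoglycans, were compared between chondrocytes and other cells sorted from mouse embryos. The embryos were Col2a1-Venus-Tg animals with a C57Bl/6 genetic background, in which chondrocytes, the cells that form cartilage, express Venus, a variant of green fluorescent protein. Col2a1 encodes the chief collagen of cartilage, and the label marks cells through that gene rather than cartilage as such. Fluorescence-activated sorting split cells of this line into Venus-positive and Venus-negative fractions, with no further treatment in the labels, and RNA of each was measured on 1 Affymetrix mouse array. How many embryos were used, at which stage and with which gates is not given in the sources used here, and the Venus-negative fraction may lack some cells of the embryo.

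The 10 genes (Sdc1 to Sdc4 and Gpc1 to Gpc6) were found through 24 probe sets annotated with exactly 1 of these symbols, out of 34945 probe sets with 1 symbol and 18193 genes in all. A probe set is a group of short probes for 1 transcript, and its value here is a MAS5 signal, a linear intensity. There is 1 array per fraction, so the values carry no replicate error, the fractions could not be tested against each other, and each difference describes these 2 arrays. Where a gene had several probe sets, their spread is given. It shows how far probes differ on these 2 RNA samples and holds no error between animals.

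Syndecans cross the membrane and carry heparan sulfate chains on their outer part, with a short cytoplasmic tail that binds adaptor proteins. Glypicans are held to the outer membrane leaf by a glycosylphosphatidylinositol anchor and carry their chains close to the membrane. The chains of both families bind fibroblast growth factors, hedgehog proteins, Wnts and bone morphogenetic proteins, and in growing cartilage heparan sulfate is known to limit how far such ligands spread.

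The labels were set beside 10 chondrocyte markers, all of which were at least 2-fold higher in the Venus-positive fraction. Their summed signal was 46565 against 3205. Col2a1, whose reporter defined the sort, is part of this count and sum, at 8443 against 606, and is no independent check. The marker lists were chosen with earlier results of these data known, so the other markers also describe the fractions and are no independent check. Every measured marker of skeletal muscle, leukocytes, erythroid cells and endothelium (7 of 7, 8 of 8, 5 of 5 and 6 of 6) was at least 2-fold lower. So were 5 of 6 smooth muscle and pericyte and 2 of 4 liver markers. Among all measured genes, 11.6% were lower by this size and 2.79% higher. These calls use the brightest probe set of each gene. Other probe sets gave log2 ratios up to -0.10 for Ttn (skeletal muscle), -0.41 for Rgs5 and -0.39 for Abcc9 (both smooth muscle and pericyte). Venus-positive cells also gave the dimmer array. Over the 11789 measured genes the log2 ratio, Venus-positive over Venus-negative, had a median of -0.33. Measured means that a probe set of the gene had, on either array, a signal of at least 22.5, the median of both arrays, which is called the floor. Ratios are on the deposited scale unless called relative, which means that this median was subtracted from the log2 ratio.

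Of the 10 genes, 9 were measured, and they spread to both sides of the typical gene. Sdc4 and Gpc6 exceeded a 2-fold higher signal in Venus-positive cells, Gpc2 and Gpc4 a 2-fold lower signal, and Sdc1, Sdc2, Sdc3, Gpc1 and Gpc3 were within 2-fold on the deposited scale. The same rule called 2.79% of all measured genes higher and 11.6% lower. By probe set, 6 of the 22 that reached the floor were at least 2-fold higher and 2 were at least 2-fold lower. The shares of all measured probe sets were 2.44% and 10.2%. The higher ones belonged to Gpc6 and Sdc4, with a dim one of Sdc3, and the lower ones to Gpc2 and Gpc4. Most thus repeat genes already counted and add no support of their own. Relative to the median gene the split of the 9 genes was 3 higher and 1 lower, since Sdc3 passed the size and Gpc4 no longer did, against 5.06% and 6.45% of all genes. None of the 9 differed by 4-fold, a size reached by 3.11% of measured genes on the deposited scale. The median log2 ratio was 0.36 for the 4 syndecans and -0.11 for the 5 measured glypicans, and the glypican median turned to 0.22 on the relative scale. A higher or lower signal in a sorted fraction cannot tell more cells of a type from more RNA per cell.

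**Figure D1:**
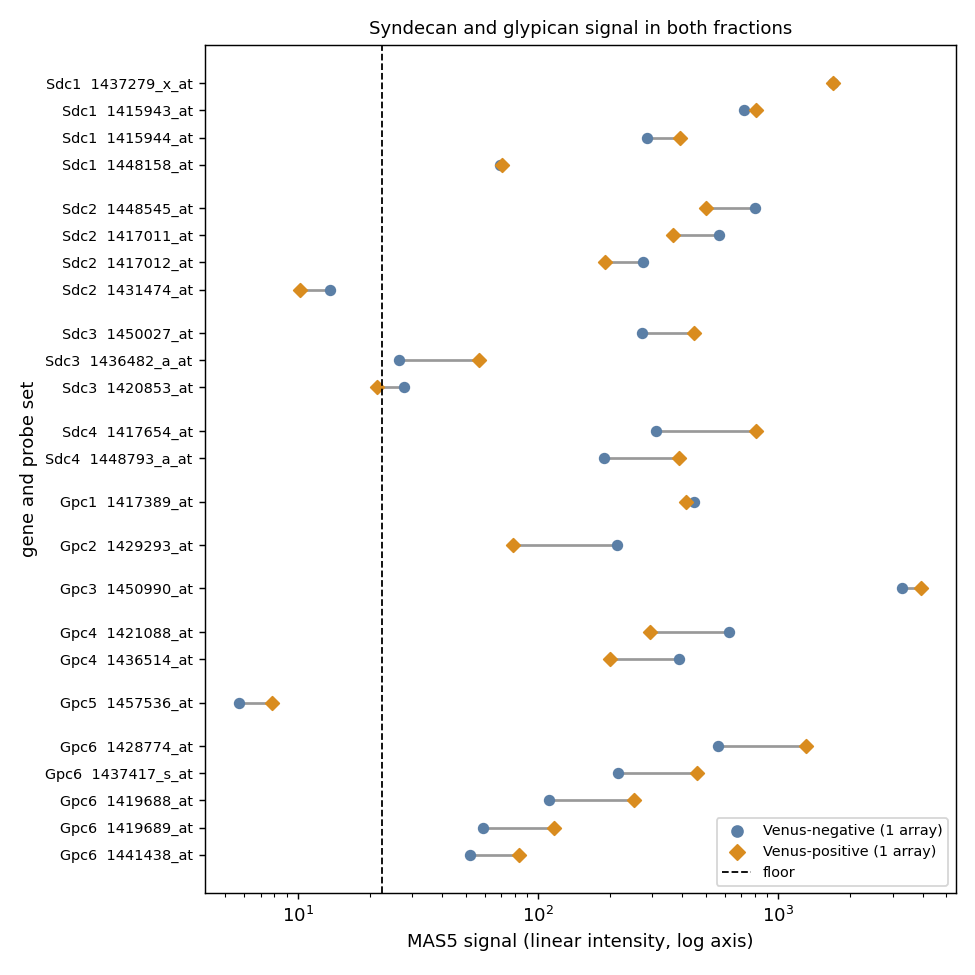
MAS5 signal (linear intensity on a log axis) of every probe set of the 10 genes in Venus-negative cells (circles) and Venus-positive cells (diamonds), 1 array each, with a dashed line at the floor of 22.5. All 5 probe sets of Gpc6 and both of Sdc4 have the diamond to the right, and both of Gpc4 and the only probe set of Gpc2 have it to the left.

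Among the syndecans, Sdc4 had the largest excess in Venus-positive cells. This gene encodes the syndecan of focal adhesions, which acts with integrins in cell attachment to fibronectin. Its brighter probe set read 809 in the Venus-positive and 309 in the Venus-negative fraction, a 2.62-fold excess and a log2 ratio of 1.39. The second probe set read 386 against 188, or 2.06-fold. Both signals of both probe sets lay more than 8 times above the floor, the lowest at 8.34 times. Only 1.64% of measured genes had a higher ratio than Sdc4, which ranked 194 of 11789.

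Sdc3, the syndecan linked in limb development to the condensing cartilage mesenchyme, also read higher, but its probe sets disagreed. The brightest read 445 in the Venus-positive fraction against 271 in the Venus-negative one, a 1.64-fold excess that became 2.07-fold relative to the median gene. A dimmer one read 57.1 against 26.3, a log2 ratio of 1.12. The third read 21.4, below the floor, against 27.8, a log2 ratio of -0.31 with the floor applied. The standard deviation of these log2 ratios was 0.73, and 3.60% of the 5445 genes with several measured probe sets had a larger spread. Both dim probe sets lay near the floor on the Venus-negative array (1.17 and 1.24 times), so the direction of Sdc3 rests mainly on its brightest probe set.

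Sdc1, a syndecan abundant on epithelia, was close to level. Its brightest probe set, of a type that can match several transcripts, read 1697 in the Venus-positive and 1695 in the Venus-negative fraction. The other 3 read 813 against 725, 389 against 284 and 71.2 against 69.8, so all 4 log2 ratios lay between 0.00 and 0.46. Relative to the median gene Sdc1 was thus 1.26-fold higher. In the same arrays 7 of 8 epithelial and epidermal markers were 2-fold lower or more in the Venus-positive fraction, beside 11.6% of all genes. Relative to the median gene 6 of the 8 were. Their summed signal was 384 against 1637, and all but Krt14 and Trp63 still reached the floor in Venus-positive cells. Cdh1, which encodes E-cadherin, was at 27.9 against 238. What part such cells have in the Sdc1 signal was not tested.

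Sdc2, the syndecan of mesenchymal and fibroblastic cells, was the only syndecan whose brightest probe set read lower in Venus-positive cells. Its 3 measured probe sets read 499.8 against 802, 367 against 569.8 and 191 against 274. The folds were 1.60, 1.55 and 1.44 in favour of Venus-negative cells, with a standard deviation of 0.08 between the log2 ratios. On the relative scale the log2 ratio of Sdc2 was -0.35, so it lay below the median gene but within 2-fold of it. Its remaining probe set was below the floor on both arrays, at 10.2 and 13.6. The fibroblast and perichondrium markers were also lower in Venus-positive cells, 7 of 8 by at least 2-fold, beside 11.6% of all genes. Their summed signal was 8525 against 20417, and all but Dpt were still at the floor or above. Their part in the Sdc2 value was not tested.

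RefSeq promoters (build GRCm38.p6) were matched for 7 of the 10 genes, and the entries not matched were Sdc2, Gpc1 and Gpc6. The 250 bases before the annotated start of both syndecan genes with the highest ratios are shown. Capitals mark each GC box (GGGCGG or, on the other strand, CCGCCC), and sequences run 5′ to 3′ on the strand of the gene.
Sdc4, chr2:164443189-164443438, minus strand: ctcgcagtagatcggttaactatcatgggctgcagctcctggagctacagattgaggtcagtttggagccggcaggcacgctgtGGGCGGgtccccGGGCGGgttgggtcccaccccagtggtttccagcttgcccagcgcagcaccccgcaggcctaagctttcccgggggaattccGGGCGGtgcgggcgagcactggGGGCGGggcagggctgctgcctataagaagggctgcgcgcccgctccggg
Sdc3, chr4:130792287-130792536, plus strand: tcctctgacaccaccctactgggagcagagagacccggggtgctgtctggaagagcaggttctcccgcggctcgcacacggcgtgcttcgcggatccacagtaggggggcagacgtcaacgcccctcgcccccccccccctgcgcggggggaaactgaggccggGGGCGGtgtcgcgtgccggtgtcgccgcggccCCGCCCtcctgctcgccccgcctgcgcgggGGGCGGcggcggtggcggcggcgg
The Sdc4 stretch held 4 GC boxes and that of Sdc3 held 3. Neither contained the SOX core letters ACAAT (or ATTGT on the other strand), which 27.7% of all 32851 RefSeq promoter stretches of this length contain. The GC box was found in all 7 matched members and in 32.7% of all stretches, and G and C made up 68.0% of the Sdc4 and 76.4% of the Sdc3 stretch, against a median of 52.4% overall. A match of letters is a description of the sequence and no evidence of binding.

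Among the glypicans, Gpc6 had the largest excess in Venus-positive cells and the most probe sets. Loss of human GPC6 is known to cause omodysplasia, a skeletal dysplasia with short limbs. The brightest of its 5 probe sets read 1311 for Venus-positive against 562 for Venus-negative cells, 2.33-fold higher. The others read 459.5 against 215, 251 against 111, 116 against 59.1 and 83.1 against 52.3. All 5 lay on the same side, from 1.59-fold to 2.33-fold, and the smallest fold belonged to the dimmest probe set. Relative to the median gene Gpc6 was 2.94-fold higher, and 2.01% of measured genes had a higher ratio.

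Gpc3, whose loss is known to cause overgrowth with skeletal defects in mice and humans, lay far above the floor in both fractions. Its only probe set read 3955 in the Venus-positive and 3270.3 in the Venus-negative fraction, 1.21-fold higher as deposited and 1.52-fold relative to the median gene. Gpc1, a widely expressed glypican, read 414 against 447 on its only probe set. Its log2 ratio was -0.11 as deposited and 0.22 when centred, so its direction depended on the scaling. Neither gene has a second probe set to show how far probes would differ.

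Gpc4 and Gpc2 were the glypicans with the largest deficits in Venus-positive cells. Gpc4, a glypican of many embryonic tissues, read 293 in the Venus-positive fraction and 627 in the Venus-negative one, 2.14-fold lower. Its second probe set read 200.5 against 387, or 1.93-fold lower. On the relative scale Gpc4 was 1.70-fold lower, so its 2-fold size held on the deposited scale and was not reached after centring, quantile normalization or scaling to the hybridisation controls, where its log2 ratio was -0.77, -0.82 and -0.79. Gpc2, a glypican known from the developing nervous system, read 79.0 against 213 on its only probe set. It was 2.69-fold lower on the deposited and 2.14-fold lower on the relative scale, and 5.47% of measured genes had a lower ratio. Most neuron and glia markers were lower too, 5 of 7 by at least 2-fold, beside 11.6% of all genes. Their summed signal was 255 against 910.4, and all but Tubb3 reached the floor in Venus-positive cells. Sox10 went the other way, at 41.0 against 16.7. The latter is below the floor, so Sox10 was at least 1.82-fold higher. The part of neural cells in the Gpc2 value was not tested.

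Gpc5 was not measured. Its only probe set read 7.80 in the Venus-positive and 5.71 in the Venus-negative fraction, both below the floor, so no fold is given. In RefSeq order Gpc5 and Gpc6 are neighbours on chromosome 14 with no protein-coding gene between them, and so are Gpc3 and Gpc4 on chromosome X. Gpc3 lay above and Gpc4 below the median gene, and their ratios differed by 2.59-fold. The 250 bases before the start of Gpc3 and Gpc4 are shown for this contrast, written as above with GC boxes in capitals.
Gpc3, chrX:52613975-52614224, minus strand: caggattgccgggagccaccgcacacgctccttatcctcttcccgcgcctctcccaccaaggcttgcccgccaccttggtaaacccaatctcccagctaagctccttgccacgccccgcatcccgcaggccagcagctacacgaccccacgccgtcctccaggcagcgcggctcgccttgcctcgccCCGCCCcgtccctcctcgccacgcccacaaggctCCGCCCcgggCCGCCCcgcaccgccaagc
Gpc4, chrX:52164924-52165173, minus strand: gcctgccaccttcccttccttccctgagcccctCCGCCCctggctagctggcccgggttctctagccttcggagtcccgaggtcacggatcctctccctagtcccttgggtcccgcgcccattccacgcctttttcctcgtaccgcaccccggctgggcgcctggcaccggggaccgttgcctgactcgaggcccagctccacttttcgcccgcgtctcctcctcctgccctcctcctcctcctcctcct
The Gpc3 stretch held 3 GC boxes and the Gpc4 stretch 1, neither held ACAAT or the TATA box letters TATAAA on either strand, and G and C made up 71.6% and 68.4%. The TATA box letters occur on either strand in 12.4% of all stretches. Of the 7 matched members, Gpc5 alone contained the TATA box letters and Gpc2 alone the SOX core letters. Both matches were on the other strand, written TTTATA and ATTGT on the strand of the gene.

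**Figure D2:**
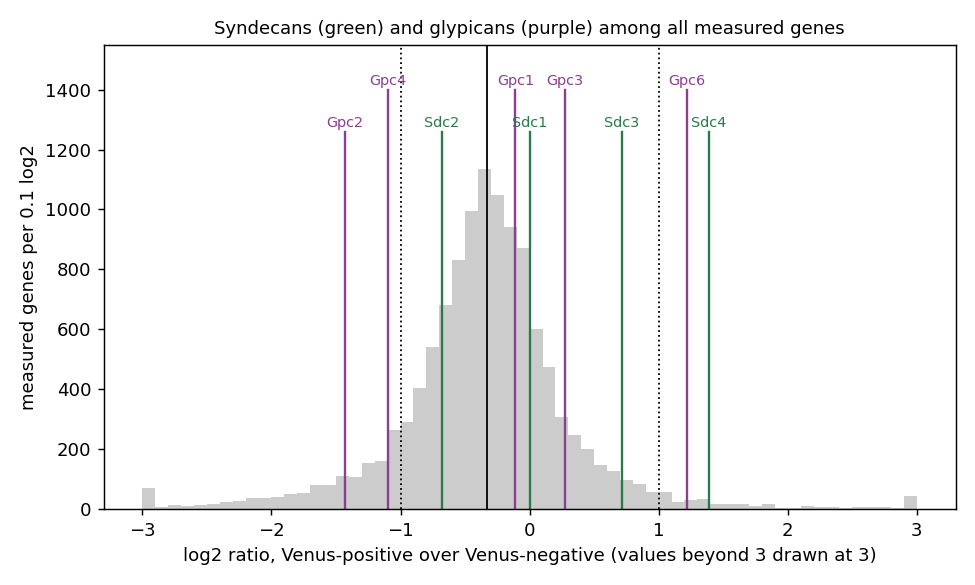
Histogram of the log2 ratio, Venus-positive to Venus-negative, for 11789 measured genes in bins of 0.1, with the 4 syndecans in green and the 5 measured glypicans in purple. The solid line is the median of all genes (-0.33) and the dotted lines are 2-fold. Sdc4 and Gpc6 lie in the upper tail, Gpc2 and Gpc4 in the lower part.

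The measured genes were then set against each other in pairs, within and between the families, through the difference of their log2 ratios. This difference does not change when an array is rescaled by a constant factor above the floor. Of 36 gene pairs, 19 differed by at least 2-fold in their ratios, where 23.7% of all pairs of measured genes did. The 36 pairs reuse the same 9 genes and are not separate observations. Of the 19, all but Sdc3 with Sdc2 include Sdc4, Gpc6, Gpc2 or Gpc4, so they largely restate the calls of those genes. Every measured probe set of the higher gene lay above every probe set of the lower one in 29 of the 36 pairs and in 77.8% of all pairs, so this separation is common among genes at large. It is met more easily by Gpc1, Gpc2 and Gpc3, which have 1 probe set each. Within the syndecans 3 of 6 pairs and within the glypicans 6 of 10 pairs differed by at least 2-fold. Of the pairs that join a syndecan with a glypican, 10 of 20 did. Sdc4 stood 4.20-fold above Sdc2, with a gap of 1.57 in log2 between their nearest probe sets, and 2.61-fold above Sdc1. Gpc6 stood 6.29-fold above Gpc2 and 4.99-fold above Gpc4, with gaps of 2.10 and 1.62. The widest contrast in the set joined the families, with Sdc4 7.05-fold above Gpc2.

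In order of ratio the genes ran Sdc4, Gpc6, Sdc3, Gpc3, Sdc1, Gpc1, Sdc2, Gpc4 and Gpc2. Some neighbours in this order were not separated by their probe sets. Sdc4 and Gpc6 differed by 0.17 in log2 with overlapping ranges, and the range of Sdc3, from -0.31 to 1.12, overlapped those of Sdc4, Gpc6, Gpc3, Sdc1 and Gpc1. Gpc3 and Sdc1 differed by 0.27 and overlapped as well. Gpc4 and Gpc2, by contrast, were 0.33 apart without overlap, but Gpc2 has only 1 probe set. The pooled standard deviation between probe sets of 1 gene over all genes was 0.34, so differences of this size are no larger than the disagreement between probes.

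**Figure D3:**
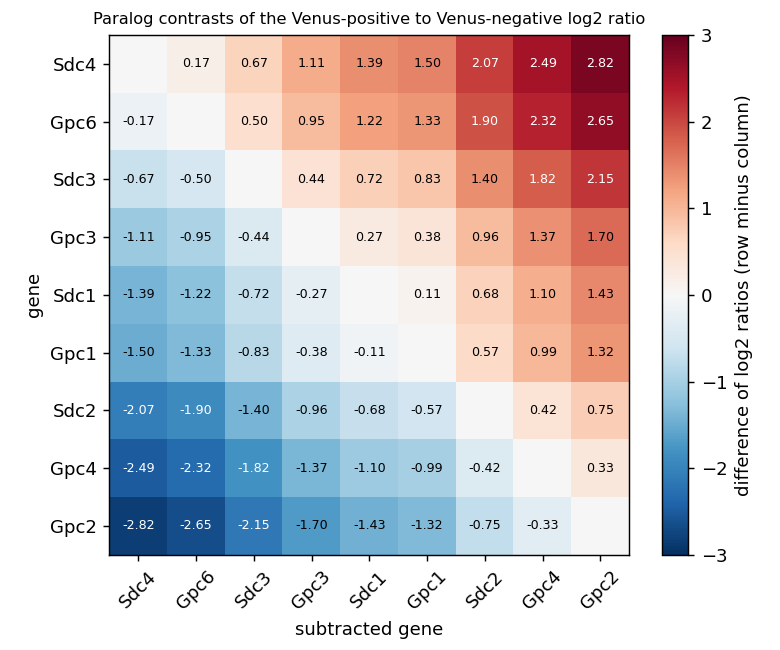
Difference of log2 ratios (Venus-positive over Venus-negative) between each pair of the 9 measured genes, row minus column, ordered from the highest ratio (Sdc4) to the lowest (Gpc2). Red cells mark a row gene with the higher ratio, and the largest difference is 2.82 for Sdc4 minus Gpc2.

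For enzymes that build and edit the heparan sulfate chains 31 genes were listed. Xylt1, Ndst1 and Hs3st5 had no probe set with 1 symbol, and Ndst3, Ndst4 and Hs6st3 were below the floor on both arrays. The remaining 25 were measured. By 2-fold or more 2 were higher and 1 was lower in Venus-positive cells, where 2.79% and 11.6% of all genes were, with a median log2 ratio of -0.13 against -0.33 for all genes. Relative to the median gene 5 were higher and 1 was lower, beside 5.06% and 6.45% of all genes. Extl1, an exostosin-like glycosyltransferase, read 144 on the Venus-positive array and 21.0 on the Venus-negative array, which is below the floor, so its excess was at least 6.41-fold. B3galt6, which adds a galactose of the linker between core protein and chain, read 74.6 against 32.0, 2.33-fold higher, though another probe set gave a log2 ratio of -0.03. The chain polymerases Ext1 (490.5 against 613) and Ext2 (176 against 202) lay within 2-fold, and so did the linker enzyme B4galt7 (126 against 113) and Extl2 (106 against 101). Ext1 and Ext2 were named after their values were seen.

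The sulfotransferases of the 3-O class differed among themselves. Hs3st1 was 3.61-fold lower in Venus-positive cells (23.1 against 83.3), with the lower value just above the floor. Hs3st3a1 (80.2 against 46.8) and Hs3st3b1 (347 against 206) were 1.71-fold and 1.69-fold higher and were named after their values were seen. They passed 2-fold relative to the median gene, with relative log2 ratios of 1.11 and 1.09. Hs3st2 (30.0 against 32.9) and Hs3st6 (23.9 against 20.3) were dim on both arrays. Hs3st4, also named after its values were seen, read 4.15 in Venus-positive against 24.7 in Venus-negative cells. The former is below the floor and the latter close to it, so Hs3st4 was at least 1.10-fold lower. The extracellular endosulfatases, which trim sulfate from finished chains, stood at 923 against 939 for Sulf1 and at 2314 against 2301 for Sulf2. Over their other probe sets the log2 ratio reached -0.32 for Sulf1 and ran from -0.58 to 0.25 for Sulf2.

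**Figure D4:**
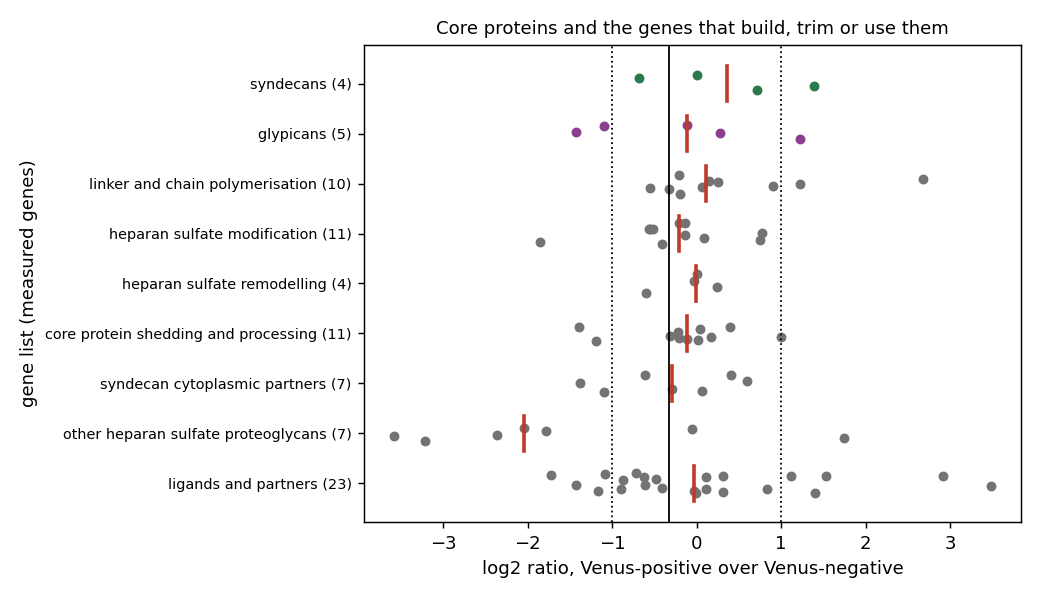
Log2 ratio (Venus-positive to Venus-negative) for each measured gene (points) of the syndecans, the glypicans and 7 related lists, with the number measured in brackets and the list median in red. The solid line is the median of all measured genes (-0.33) and the dotted lines are 2-fold. The other heparan sulfate proteoglycans have the lowest median (-2.05).

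Among genes listed for release or processing of the core proteins, 2 of 11 measured were lower by 2-fold or more, beside 11.6% of all genes. None was higher by that size. After the shift to the median gene 1 was higher and 1, Adam10, was lower. The higher one was Pcsk6, a proprotein convertase named here after its value was seen, at 218 against 109, just short of 2-fold as deposited and 1.33 in relative log2 ratio. Adam10, a membrane protease that sheds syndecan ectodomains among many substrates, read 549.6 in the Venus-positive and 1447 in the Venus-negative fraction, 2.63-fold lower, and -1.12 was the log2 ratio of its second probe set. Pcsk5, a proprotein convertase, was 2.29-fold lower (270.2 against 619). Mmp2 (887 against 864) was level, and the median log2 ratio of the list was -0.12. Gde1 was level too (411 against 407), but its action on these core proteins is assumed by the list and not shown here. Among 7 measured partners of the syndecan tail, Fyn, a Src-family kinase, was 2.60-fold lower (129 against 335), and Cask, a scaffold protein with a PDZ domain, was 2.14-fold lower (275 against 587). Sdcbp, which encodes syntenin, the adaptor of the syndecan tail, read 1671 against 2043, and Prkca, a kinase activated with syndecan-4, read 154 against 147. The probe sets of Cask ranged from -1.27 to -0.50 in log2 ratio. No member of this list was 2-fold higher, and after the shift to the median gene 1 was lower and Cask lay within 2-fold, at -0.76. The median of the list was -0.29, against -0.33 for all genes, of which 11.6% were 2-fold lower.

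Most other genes of proteins that can carry heparan sulfate had lower signals in the Venus-positive fraction. Of 7 measured, 5 were lower and 1 was higher by 2-fold or more, with a median log2 ratio of -2.05, against 11.6% lower and 2.79% higher among all measured genes. The same counts held relative to the median gene. Srgn, the proteoglycan of leukocyte granules, was 11.9-fold lower (76.9 against 919). Col18a1, a collagen of basement membranes, was 9.24-fold lower (32.6 against 301), Cd44 was 5.16-fold lower (75.5 against 389) and Tgfbr3, the betaglycan gene, was 4.13-fold lower (160.1 against 661). Nrp1, named after its value was seen as the remaining lower gene, was 3.45-fold lower, and other probe sets of Cd44 and Nrp1 gave log2 ratios up to -0.19 and -0.44. Hspg2, which encodes perlecan, the large heparan sulfate proteoglycan of cartilage matrix, was 3.34-fold higher (387 against 116) by its brighter probe set and had a log2 ratio of 0.79 by its other one, and Agrn was level (769.8 against 800.2). Leukocyte markers had a summed signal of 153 against 1994 and endothelial markers of 124 against 702, with 3 of 8 (Csf1r, Mrc1 and Cd68) and 3 of 6 (Cdh5, Emcn and Kdr) still reaching the floor in Venus-positive cells. Their part in the values of this list was not tested.

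Ligands and partners bound through these proteoglycans split in both directions, with 5 of 23 measured genes higher and 4 lower by 2-fold or more, beside 2.79% and 11.6% of all genes. After the shift to the median gene the counts were 6 and 2, beside 5.06% and 6.45% of all genes. Those with higher signals were Fgfr3 (2214 against 198), Ihh, which encodes the hedgehog protein of growing cartilage (170.03 against 16.3, below the floor, so at least 7.56-fold), the matrix glycoprotein gene Tnc (1639 against 569), Fgfr2 and Ptch1. Unc5d read 10.01 against 74.4, and since the former is below the floor it was at least 3.31-fold lower. The genes Wnt5a, Fgf18 and Ptn were 2.69-fold, 2.24-fold and 2.11-fold lower. Fgf18 and Ptn lay within 2-fold of the median gene, with relative log2 ratios of -0.83 and -0.75. Some calls did not hold for every probe set. Their log2 ratios ran from 0.25 to 1.11 for Ptch1 and from 0.93 to 1.53 for Tnc. They ran from -1.95 to -0.39 for Wnt5a and from -1.43 to -0.83 for Ptn. All measured probe sets of Fgfr2 and Fgfr3 passed 2-fold. Fgfr2, Ptch1, Wnt5a, Fgf18 and Ptn were named after their values were seen. Ror2 (369.6 against 371) and Itgb1, the beta-1 integrin gene (437 against 448), were level. The list median was -0.03 on the deposited scale, against -0.33 for all genes.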

How the data were processed

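The deposited value is 1 linear intensity per probe set and array, and per the submitters' processing notes the authors used MAS5, which corrects perfect-match by mismatch probes. No version, scaling target or detection call is given in the sources used here. Groups follow the cell type in the labels, with 1 array each, and that number limits the precision.

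The 64 control probe sets were set aside. Of 45037 others, 34945 had 1 symbol in the platform annotation, 932 several and 9160 none, and 10 of 10 members matched RefSeq (GRCm38.p6) by gene ID. Signals below the floor (22.5, the median of all signals) were set to it before log2, and the dimmer side below the floor makes a fold a lower bound. Each gene took the value of its brightest probe set, by mean log2 signal. Calls are sizes of at least 2-fold or 4-fold, without a test. Counts, medians and the 8 alternatives were computed in Python 3.11.15 with pandas 2.3.3, and the procedure was tested on simulated data.

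All members were named, and of each related list up to 4 genes past 2-fold with the largest log2 ratio and up to 2 with the smallest. Members and lists were chosen with earlier results of these data known. Coordinates are printed only for RefSeq promoters.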

Additional observations from a re-analysis of the deposited data

How the results depend on the processing

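The processing was varied by 3 scalings (centring on the median ratio, quantile normalization and the hybridisation controls), by floors at the 25th and 75th percentiles, by log2(signal + 16) without a floor, by the mean over probe sets, and by leaving out probe sets that can match several transcripts. Of 72 log2 ratios of the members under these alternatives, 70 moved less than 0.34, which is the pooled standard deviation between probe sets of 1 gene, and none past 2-fold changed sign. The exceptions were Gpc2 with quantile normalization (-1.08) and with the higher of these floors (-0.90). Much of this outcome was set in advance, so the count of 70 says little about stability. Centring shifts every log2 ratio by 0.33, just under the limit, and the lower floor left these ratios unchanged. Sdc4 stayed between 1.21 and 1.72 and Gpc6 between 1.03 and 1.55. Gpc1, within 2-fold throughout, was above 0 under 3 of 8 alternatives. The count of members at least 2-fold lower was 1 in place of 2 with each of the 3 scalings, where Gpc4 dropped out, and with the higher floor, where Gpc2 did. The count of heparan sulfate enzymes at least 2-fold higher was 5 in place of 2 under each of the 3 scalings, 0 with the higher floor, and 1 without a floor or with the mean over probe sets. The count of those at least 2-fold lower was 2 in place of 1 with the lower floor or without a floor, and 0 with the higher floor. By construction the scalings shift all ratios and the higher floor compresses those of dim genes. The cause was not tested for the other changes. The glypican median turned from -0.11 to 0.08 with the lower floor, where Gpc5 enters, and to 0.18 to 0.22 under the scalings. No paired analysis was possible because each group has 1 array. Signals near the floor, as for 2 probe sets of Sdc3 and for Hs3st1, limit what can be said of those genes.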

Other observations

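A further probe set is annotated with both Gpc2 and Gal3st4 and was left out because it names several genes. It read 23.4 for Venus-positive against 27.7 for Venus-negative cells, both close to the floor of 22.5.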
